A study of Mus musculus with 9 samples.

Results

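The cadherin family was followed in the cortex of mouse embryos that differ at HAR1984, a human accelerated region, that is, a piece of DNA conserved among vertebrates that changed fast on the human lineage. Members were all genes named Cdh with a number or Pcdh in both comparison tables that had a mean normalised count (baseMean, the authors' mean over all samples) of at least 20, with the endothelial gene Cdh5 left out. This gave 89 genes of 39184 in both tables: 5 type I and 11 type II classical cadherins, 4 other numbered cadherins, 57 protocadherins of the Pcdha, Pcdhb and Pcdhg clusters (14, 21 and 22) and 12 protocadherins outside them. Of 93 genes with such a name, 3 had too low a baseMean. The nearest genes under the minimum were Cdh19 (17.8) and, far lower, Cdh16 (0.533), and the nearest over it were Cdh26 (24.8) and Cdh15 (29.5). The name Pcdha11 stands for a pair of gene IDs, so the 89 members have 88 names. All 89 had an adjusted p in both tables.

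Control embryos carried the mouse sequence of HAR1984 on each allele (Mm/Mm). In knock-in embryos, made by CRISPR, a human allele stood beside a mouse allele (Hs/Mm). In deletion embryos, also made by CRISPR, neither allele held it (del/del), with 3 libraries per genotype. All were labelled E16.5 except deletion replicate 3, which is labelled E16.6. The labels give the tissue as embryonic cortices and the cell type as neural progenitors, and give neither the strain nor the sex of the embryos. Of 10 marker genes of cortical neurons and progenitors, 9 were measured, with baseMean from 554 to 35817, the highest being Neurod6, a gene of postmitotic projection neurons, so that neuronal RNA was present beside that of progenitors.

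Cadherins are calcium-dependent adhesion proteins. Classical cadherins bind the same or related cadherins on the next cell and are tied to actin through catenins. In the developing cortex N-cadherin (Cdh2) holds radial glia together at the ventricular surface, and type II cadherins are expressed in patterns that differ between regions and layers. The clustered protocadherins are chosen from arrays of alternative promoters, so that single neurons express different sets, and they act in self-recognition of dendrites and axons and in neuron survival. Protocadherins outside the clusters act in axon growth, sorting and synapse formation.

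No values for single libraries were used. The table columns headed FPKM carry the names of libraries, but all 235530 values of the deletion table and all 242196 of the knock-in table equal baseMean times a computer-generated random number, so they measure no library. The spread between libraries is therefore known only through the standard error (SE) in the deposited tables, and how deeply each library was sequenced is unknown. Each log2 fold change was taken as the deposited Wald statistic times its SE and rests on 3 libraries per group. P-values are 2-sided Wald p of that statistic, with Benjamini-Hochberg adjustment over the 18952 genes (deletion) and 21222 genes (knock-in) with an adjusted p in the tables, and a gene passed at an adjusted p under 0.05. At the members' median SE of 0.20, a difference of about 0.70 in the deletion or 0.81 in the knock-in was needed to pass.

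The family is led by N-cadherin. Per kb of annotated exon, Cdh2 had a mean normalised count of 2471, followed by Cdh4 or R-cadherin (813), the activity-regulated protocadherin gene Pcdh8 (718) and Pcdhgc3 of the gamma cluster (660). Cdh2 alone held 22.3% of the summed baseMean of the members. Cdh13, the cadherin anchored to the membrane by a lipid, had 486 per kb, and Cdh11, a type II cadherin also abundant in mesenchyme, had 448. Class medians were 116 for type I, 77.6 for type II, 13.2 for the other numbered cadherins, 32.7 for Pcdha, 49.1 for Pcdhb and 228 for the protocadherins outside the clusters, and that of Pcdhg lay between those of Pcdhb and type I. No error can be given for these levels, which are means over genotypes. In the Pcdha and Pcdhg clusters the last exons are common to all genes of the cluster, so a median of 53.6% and 45.3% of a gene's exon bases lie in exons of other genes, and the sources used here do not give how such reads were counted.

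**Figure D1:**
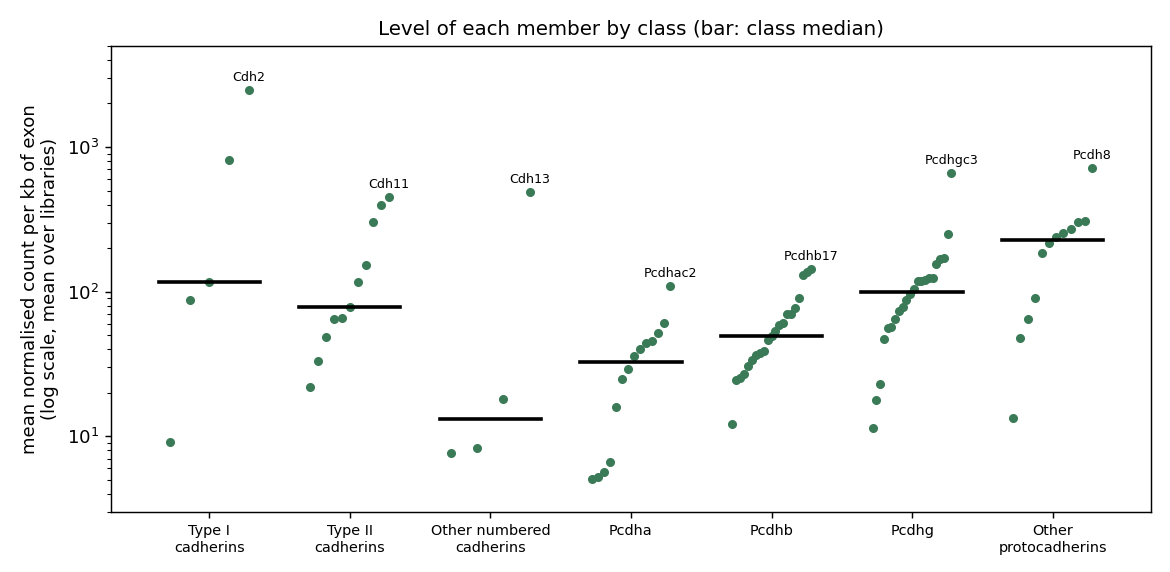
Mean normalised count per kb of exon (log axis) of each of the 89 members, by class, with the class median as a bar and the highest gene named. Cdh2, at 2471, lies above all other members, and the median of the protocadherins outside the clusters, 228, is the highest of the 7 class medians.

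Members with an unadjusted p under 0.05 in both comparisons were Cdh23 and Pcdh15, whose proteins form the tip links of inner ear hair cells, and the type II cadherin genes Cdh7, Cdh22 and Cdh24. All 5 lay below control in each comparison. Both comparisons use the same control libraries, so this overlap is not separate evidence. The share of all genes with such a p in both was not computed, so there is no background to judge this count by. In single comparisons, 4.31% (deletion) and 3.39% (knock-in) of all genes tested were lower at such a p, against 5.62% and 8.99% of members. The promoter windows of these 5 genes, the 250 bases before a RefSeq start (GRCm38.p6), are shown because of those p-values, in capitals wherever C is followed by G. The Cdh23 window lies at chr10:60696491-60696740 on the minus strand, that of Pcdh15 at chr10:73821617-73821866 on the plus strand, that of Cdh22 at chr2:165234738-165234987 on the minus strand, that of Cdh24 at chr14:54641365-54641614 on the minus strand and that of the first of 3 starts of Cdh7 at chr1:109982650-109982899 on the plus strand. In the GENCODE M21 annotation Pcdh15 starts at 73099342 and Cdh7 at 109982431, so both windows lie inside the annotated gene and not before it. The Cdh22 window overlaps its gene, which starts at 165234853.
Cdh23: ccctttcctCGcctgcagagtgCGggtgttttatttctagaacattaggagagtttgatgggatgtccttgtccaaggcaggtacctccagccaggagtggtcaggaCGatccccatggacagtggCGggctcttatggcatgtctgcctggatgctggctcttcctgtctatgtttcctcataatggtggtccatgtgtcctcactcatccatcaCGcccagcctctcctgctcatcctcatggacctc
Pcdh15: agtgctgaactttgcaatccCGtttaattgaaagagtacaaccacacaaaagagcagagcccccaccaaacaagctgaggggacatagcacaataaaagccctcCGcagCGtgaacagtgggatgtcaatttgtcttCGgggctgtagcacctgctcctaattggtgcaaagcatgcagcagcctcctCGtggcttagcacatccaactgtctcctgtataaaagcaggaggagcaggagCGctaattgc
Cdh22: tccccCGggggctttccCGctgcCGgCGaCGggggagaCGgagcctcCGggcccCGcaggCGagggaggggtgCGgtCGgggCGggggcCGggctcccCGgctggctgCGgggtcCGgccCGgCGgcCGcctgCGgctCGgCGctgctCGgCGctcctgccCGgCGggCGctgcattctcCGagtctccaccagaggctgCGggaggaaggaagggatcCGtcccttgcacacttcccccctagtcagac
Cdh24: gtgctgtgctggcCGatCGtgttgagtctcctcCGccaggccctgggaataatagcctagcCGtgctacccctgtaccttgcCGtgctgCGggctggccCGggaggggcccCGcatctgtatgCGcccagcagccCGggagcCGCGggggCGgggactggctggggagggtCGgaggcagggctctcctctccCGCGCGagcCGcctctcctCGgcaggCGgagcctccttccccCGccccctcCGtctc
Cdh7: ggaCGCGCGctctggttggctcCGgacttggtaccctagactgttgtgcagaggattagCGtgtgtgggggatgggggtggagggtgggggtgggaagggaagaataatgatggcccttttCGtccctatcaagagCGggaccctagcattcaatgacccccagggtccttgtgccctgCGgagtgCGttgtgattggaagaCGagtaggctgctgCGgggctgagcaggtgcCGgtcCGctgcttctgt
CG pairs number 30 in the Cdh22 window, 22 in that of Cdh24, 13 in that of Cdh7, 6 in that of Pcdh15 and 5 in that of Cdh23. The median over all 32851 windows of this length is 6. Motifs known for factors of this tissue were searched on both strands: TGACAG (Meis), TAATTA (homeodomain, Dlx type), CCGGAAG (ETS) and TGATTNAT (Pbx). The windows printed hold 0 of them. Cdh7 has 2 further windows, before starts that lie downstream of the first, which are not printed. These can overlap its untranslated exons, as can the printed window, and hold 1 match each, to TGACAG (from 109983052) and to TAATTA (from 109983473). Among all windows, 15.9% hold TGACAG, 4.84% TAATTA, 6.91% CCGGAAG and 2.82% TGATTNAT. Windows were found for 22 of the members, with 25 windows, and of these 4 hold TGACAG (Cdh6, Cdh7, Cdh15 and Cdh20), 1 holds TAATTA (Cdh7), 1 holds TGATTNAT (Cdh9) and 0 hold CCGGAAG.

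The first comparison asked what loss of HAR1984 on both alleles does. Cdh23 fell in the deletion, with a log2 fold change of -1.61 (SE 0.38, adjusted p = 0.00759), to 0.328 of the control level. The 95% interval of the log2 value was -2.36 to -0.85. It is a long gene with few reads, with a baseMean of 129 and 7.60 per kb. No other member passed. That is 1 of 89 members, against 0.976% of all genes tested (0.475% lower). By the deposited adjusted p it is also 1, against 1.03% (0.512% lower). The members' 1.12% is near that background. At an unadjusted p under 0.05, 7 members were higher and 5 lower, 7.87% and 5.62%, against 5.19% and 4.31% of all genes tested. The median of the members was 0.05 and that of all 19292 genes with a baseMean of at least 20 was -0.01.

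Of the type I cadherins, Cdh2 differed from control in the deletion by -0.06 (SE 0.09) and Cdh4 by -0.05 (SE 0.14). These abundant genes had the tightest estimates of their class, with 95% intervals of -0.23 to 0.11 and -0.31 to 0.22. Cdh1, the E-cadherin of epithelia, had 1.72 (SE 0.76, adjusted p = 0.389) and Cdh3, the P-cadherin, -0.13 (SE 1.22). The SEs of Cdh1 and Cdh3 are far above the members' median of 0.20, although their baseMean is moderate (399 and 510). Of 10 epithelial marker genes, a list added after the values were seen, 4 reached the baseMean minimum, and their medians were -0.27 (deletion) and 0.02 (knock-in). Trp63, Krt5 and Krt14 were not among the 4. Of the 4, Krt8 and Krt18 had SEs above that of Cdh3, and Epcam and Sfn had SEs below that of Cdh1. The 5 choroid plexus markers had medians of -0.26 (deletion) and 0.22 (knock-in), each gene with an SE of at least 0.93 in both comparisons. The part of epithelium or choroid plexus in the Cdh1 and Cdh3 values was not tested. Cdh15, the M-cadherin of muscle, had -0.36 (SE 0.39).

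Of the type II cadherins 7 of 11 lay below control in the deletion, with a median of -0.10 and 0 past the threshold. Cdh7 had -0.45 (SE 0.14, unadjusted p = 0.00173, adjusted p = 0.103), the smallest p of the classical cadherins. Cdh22 had -0.48 (SE 0.21), Cdh24 -0.26 (SE 0.13) and Cdh18 -0.54 (SE 0.35), the lowest value of the class. Cdh12, a brain cadherin, was highest at 0.70 (SE 0.30, adjusted p = 0.362). The abundant members Cdh11 (0.09, SE 0.08), Cdh6 (-0.01, SE 0.17) and Cdh8 (-0.10, SE 0.21) had values near 0. Cdh6 and Cdh8 are known for borders between forebrain regions. Of the other numbered cadherins, Cdh17, the liver-intestine cadherin, had 1.47 (SE 0.53, adjusted p = 0.195) and Cdh13 had -0.10 (SE 0.12).

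The protocadherins outside the clusters had a median of -0.10 in the deletion, with 8 of 12 below control. Pcdh15 had -0.48 (SE 0.20, adjusted p = 0.315), and Pcdh11x, an X-linked gene, had the lowest value at -0.49 (SE 0.32). Pcdh10, needed for axon tracts through the ventral forebrain in mouse, had -0.28 (SE 0.21), and Pcdh17, known from corticostriatal synapses, -0.26 (SE 0.26). Pcdh12, the vascular endothelial protocadherin, was highest at 0.39 (SE 0.18, adjusted p = 0.458). Beside it, all 10 endothelial markers were above control, with a range of 0.12 to 0.68. The highest of these 10 was Cdh5, the VE-cadherin left out of the family here, with 0.68 (SE 0.22). Of the 10, 1 passed, Flt1 (0.65, SE 0.15, adjusted p = 0.00512). The part of endothelium in the Pcdh12 value was not tested. Pcdh8 had 0.17 (SE 0.16), Pcdh18 0.03 (SE 0.09), Pcdh9 -0.02 (SE 0.16) and Pcdh19, an X-linked protocadherin that binds N-cadherin, -0.07 (SE 0.17).

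In bulk tissue, fewer cells of a type and less RNA per cell cannot be told apart. Beside the fall of Cdh23, 12 of 13 markers of subpallium and interneurons were below control in the deletion, from -3.10 to 0.25 with a median of -0.75, and 6 of them passed, among them Dlx2 (-0.77, adjusted p = 0.00759) and Dlx5 (-1.06, adjusted p = 0.00759), transcription factors of GABAergic neurons, and Tac1 (-3.10, adjusted p = 0.0203). All 10 meningeal markers were above control (median 0.83), of which 5 passed. Oligodendrocyte precursor markers had a median of -0.22. The part of these cells in the members' values was not tested.

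The second comparison asked what 1 human allele does. No member passed in the knock-in by the Wald test, against 0.137% of all genes tested (0.0471% lower). At an unadjusted p under 0.05, 8 members were lower and 1 higher, 8.99% and 1.12%, against 3.39% and 3.53% of all genes tested. The members' median was -0.11, with 62 of 89 below control, while that of all genes with a baseMean of at least 20 was 0.01, with 51.6% above control. Pcdh18 was the higher one of those with an unadjusted p under 0.05.

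Cdh22 had -0.60 in the knock-in (SE 0.21, unadjusted p = 0.00507, adjusted p = 0.384), and Cdh23 -0.92 (SE 0.38, adjusted p = 0.533). Cdh7 had -0.31 (SE 0.14), Cdh24 -0.29 (SE 0.13) and Cdh18 -0.53 (SE 0.35). Type II cadherins had a median of -0.27, with 7 of 11 below control, as in the deletion. Both comparisons use the same control libraries, so like values in them are not separate evidence. Cdh12, at 0.11 (SE 0.30), was the highest of the class, Cdh11 had 0.05 (SE 0.08), Cdh6 0.10 (SE 0.17) and Cdh8 -0.27 (SE 0.21). N-cadherin had -0.05 (SE 0.09) and Cdh4 -0.01 (SE 0.14), as near to control as in the deletion. Cdh1 had -0.73 (SE 0.76), the lowest type I value, Cdh3 0.26 (SE 1.22), the highest, and Cdh15 0.09 (SE 0.38). Cdh13 had -0.10 (SE 0.12), Cdh17 -0.10 (SE 0.54) and Cdh26, a cadherin of digestive tract epithelium, 0.46 (SE 0.98).

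Among the protocadherins outside the clusters, 10 of 12 lay below control in the knock-in, with a median of -0.17. Pcdh11x was lowest at -0.91 (SE 0.32, unadjusted p = 0.00422, adjusted p = 0.362), then Pcdh15 at -0.51 (SE 0.20, adjusted p = 0.462) and Pcdh17 at -0.51 (SE 0.26, adjusted p = 0.717). Pcdh10 had -0.30 (SE 0.21), Pcdh8 -0.19 (SE 0.16), Pcdh19 -0.12 (SE 0.17) and Pcdh9 -0.05 (SE 0.16). The exceptions were Pcdh12 (0.31, SE 0.18), beside 10 of 10 endothelial markers above control (median 0.34), and Pcdh18 (0.20, SE 0.09, unadjusted p = 0.0300, adjusted p = 0.632). Pcdh11x and Pcdh19 are on the X chromosome. The Y-linked genes Eif2s3y (-27.20, SE 3.91) and Uty (-26.20, SE 3.66) had fitted values in the knock-in of a size that is no measured ratio. Ddx3y and Kdm5d, also Y-linked, had -10.89 (SE 2.68) and -11.30 (SE 3.02) there. In the deletion Eif2s3y had -1.26 (SE 3.73), Ddx3y -1.38 (SE 2.54) and Kdm5d -1.48 (SE 2.85), and Uty had no value. The labels do not give sex, and its part in the Pcdh11x value, or in any other value of the knock-in, was not tested. Subpallial and interneuron markers were below control in 12 of 13 cases in the knock-in too (median -0.66), with 0 past the threshold. Of the oligodendrocyte precursor markers 4 were below control there and 1 above, from -0.99 to 0.32 with a median of -0.83. All 10 meningeal markers (median 0.44) and all 9 measured cortical markers (median 0.17) were above control there, also with 0 past the threshold. Their part was not tested either.

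**Figure D2:**
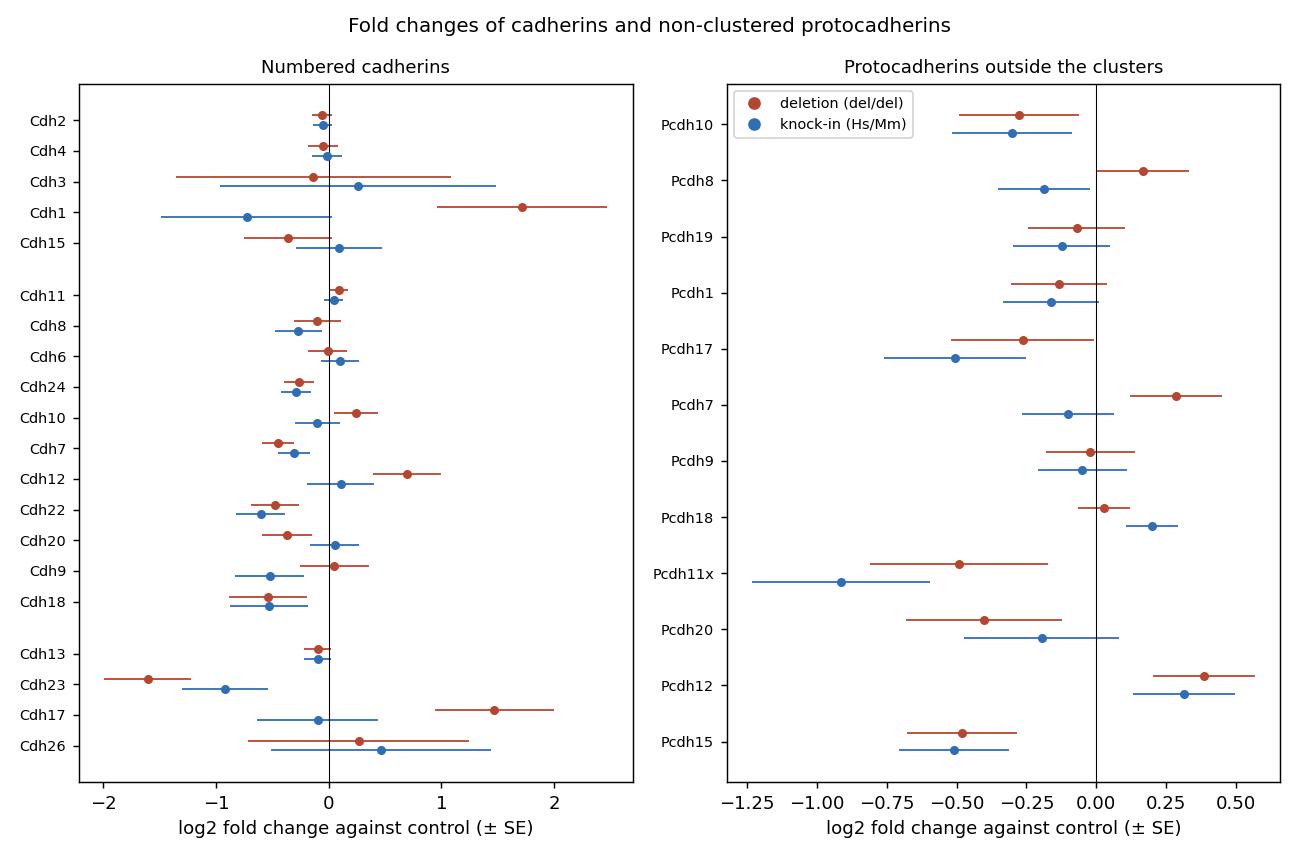
Log2 fold change against control with its SE for the 20 numbered cadherins (left, by type and falling baseMean) and the 12 protocadherins outside the clusters (right, by falling baseMean), deletion in red and knock-in in blue. Cdh23 in the deletion, at -1.61, is the member past the threshold, and the wide bars of Cdh1, Cdh3 and Cdh26 show SEs of 0.76 to 1.22.

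In the authors' deposited table, 5 members have an adjusted p under 0.05 in the knock-in, all lower: Pcdhga2 (2.86e-04), Pcdh11x (3.45e-04), Cdh22 (3.68e-04), Pcdh15 (4.43e-04) and Cdh23 (5.14e-04). By that adjusted p 4.38% of all genes tested pass (2.02% lower). The raw p in the authors' deposited table is in each of these cases 0.001 times the p of the statistic on the same row. For Cdh22 it is 5.07e-06, where the statistic of -2.80 gives 0.00507. The same factor holds for all 923 genes tested whose statistic gives a p of up to 0.0268, and Cdh24, with a p of 0.0270, lies just outside that range. The fold changes of all 89 members and the p-values of the members in the deletion equal those of their statistics within the tolerance. The fall of Cdh23 in the deletion is the same in the authors' full and shorter lists, with a deposited adjusted p of 0.00749.

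The clustered protocadherins lie side by side on chromosome 18, Pcdha from 36930184 to 37187661, Pcdhb from 37294812 to 37524479 and Pcdhg from 37661793 to 37841873 (GENCODE M21, mm10). Of 57 genes 0 passed in either comparison, against 0.976% (deletion) and 0.137% (knock-in) of all genes tested. At an unadjusted p under 0.05, 3 were higher (5.26%) and 0 lower in the deletion, against 5.19% and 4.31% of all genes tested. In the knock-in 0 were higher and 1 lower (1.75%), against 3.53% and 3.39%. In the deletion 42 of the 57 lay above control (73.7%, against 48.4% of all genes with a baseMean of at least 20), with a median of 0.11. In the knock-in 18 lay above control (31.6%, against 51.6%), with a median of -0.11. Genes of a cluster can share enhancers and, in Pcdha and Pcdhg, exons and reads, so they are not separate observations.

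In the alpha cluster 13 of 14 genes were above control in the deletion, with a median of 0.20. Pcdha12 had 0.39 (SE 0.17, unadjusted p = 0.0230, adjusted p = 0.388), the Pcdha11 gene ENSMUSG00000007440 was highest at 0.53 (SE 0.30), and Pcdhac2, the member that spaces serotonergic axons in mouse, was lowest at -0.11 (SE 0.19). In the knock-in 6 were above control and 8 below, with a median of -0.06, or -0.24 without the genes that have over 60% of their exon bases in other genes, a setting added after seeing the data. The same Pcdha11 gene was highest at 0.41 (SE 0.30) and Pcdha8 lowest at -0.39 (SE 0.67), while Pcdhac2 had -0.23 (SE 0.19) and Pcdha12 0.32 (SE 0.17).

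The beta genes have a coding region of 1 exon and lack the common cytoplasmic part, and in the annotation all of them except Pcdhb12, Pcdhb21 and Pcdhb22 share no exon base with another gene. Of these 21, 17 were above control in the deletion, with a median of 0.24, and 10 in the knock-in, with a median of -0.02. Pcdhb11 was highest in the deletion at 0.64 (SE 0.26, unadjusted p = 0.0148, adjusted p = 0.317) and Pcdhb3 lowest at -0.13 (SE 0.19). Pcdhb17, the most abundant per kb, had 0.35 (SE 0.17, unadjusted p = 0.0416, adjusted p = 0.492). In the knock-in Pcdhb12 was highest at 0.38 (SE 0.36) and Pcdhb7 lowest at -0.32 (SE 0.17). In chromosomal order, the 9 genes from Pcdhb2 to Pcdhb10 had a median of 0.01 in the deletion, from -0.13 to 0.33, and the 12 from Pcdhb11 to Pcdhb22 had 0.35, from 0.00 to 0.64. In the knock-in the same 9 and 12 genes had medians of -0.09 and 0.03, with 3 and 7 above control. This division was made after the values were seen and was not tested. Over the 21 genes the Spearman correlation of the deletion value with order was 0.46, and of the knock-in value -0.02. The same correlations were -0.21 and 0.33 in the alpha cluster and -0.22 and 0.16 in the gamma cluster. Neighbours within a cluster share a chromosomal region and the same libraries, and low genes have wide errors.

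In the gamma cluster the values were small in the deletion, where 20 of 22 lay within 0.25 of control, with a median of 0.01 and 12 above control. In the knock-in 20 of 22 lay below control, with a median of -0.16. Pcdhga2 had -0.44 there (SE 0.15, unadjusted p = 0.00277, adjusted p = 0.302), the smallest p of all members in that comparison. Its deletion value was -0.10 (SE 0.15). Pcdhga10 was highest in both, at 0.44 (SE 0.28) and 0.36 (SE 0.28), and all of its exon bases lie in exons of other annotated genes. The C-type genes stand at the end of the cluster. Pcdhgc3, the most abundant clustered gene, had 0.07 (SE 0.11) in the deletion and, in the other comparison, -0.04 (SE 0.11). Pcdhgc4, on which survival of cortical interneurons depends in mouse, had -0.19 (SE 0.19) and -0.22 (SE 0.19), and Pcdhgc5 -0.29 (SE 0.24) and -0.30 (SE 0.24), so that Pcdhgc5 was the lowest gamma gene in the deletion.

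**Figure D3:**
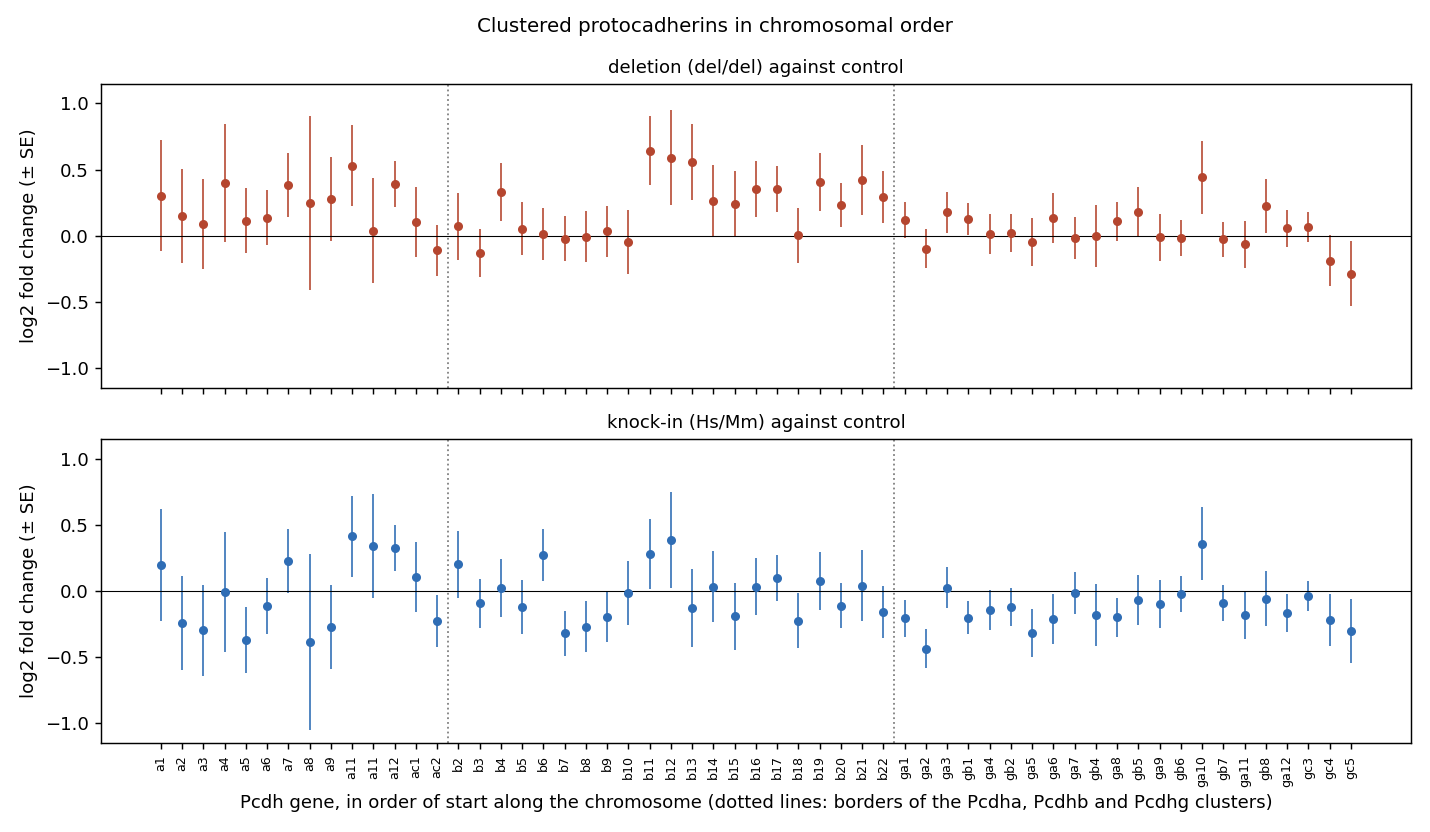
Log2 fold change against control with its SE for the 57 clustered protocadherins in the order of their starts along the chromosome, deletion above and knock-in below. From Pcdhb11 to Pcdhb22, a stretch chosen after the values were seen, all 12 deletion values are above 0, the lowest being Pcdhb18 (0.0025, SE 0.21). In the knock-in 20 of 22 gamma genes are below 0. Genes of a cluster are not separate observations, and 0 of the 57 passed in either comparison.

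Deletion and knock-in were then set against each other, which removes the control from the difference. It does not remove sex, which the labels do not give. The Y-linked gene Eif2s3y had fitted values of -1.26 (SE 3.73) in the deletion and -27.20 (SE 3.91) in the knock-in. Where sex differs between these groups it cannot be told apart from genotype, and its part was not tested. Of 89 members 0 differed by a Wald test of the difference (SE as the root of both summed squares), against 0.00528% of all 18928 genes tested, and 2 had an unadjusted p under 0.05, where 1.02% of all genes were higher in the deletion. These were Cdh1, which was higher in the deletion by 2.44 (SE 1.07, unadjusted p = 0.0226, adjusted p = 0.9998, 95% interval 0.34 to 4.54), and Cdh17, higher by 1.56 (SE 0.75, unadjusted p = 0.0376, adjusted p = 0.9998). This SE counts the control in both terms and is too wide. With equal spread assumed in all groups, 0 members differed as well (smallest adjusted p 0.178, Cdh1; 0.0845% of all genes), and 12 had an unadjusted p under 0.05, all higher in the deletion, against 4.8% of all genes higher and 5.51% lower. Of these 12, 7 were clustered protocadherins, with Pcdhgb1 (0.33), Pcdhb13 (0.69) and Pcdhga1 (0.33) at the smallest p, named after their values were seen. The difference for Cdh23 was -0.69 (95% interval -1.74 to 0.37), an interval that holds 0.

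By class, the deletion value was above the knock-in value for 51 of 57 clustered protocadherins (89.5%, against 48.0% of all genes with a baseMean of at least 20), with a median difference of 0.23. This held for 13 of 14 alpha, 17 of 21 beta and 21 of 22 gamma genes. In the gamma cluster the difference was at most 0.35 and the exception was Pcdhga7, at -0.00. For classical cadherins it held for 8 of 16, with a median of 0.01, and for the protocadherins outside the clusters for 10 of 12, with a median of 0.04. The 5 C-type genes had a median difference of 0.03 and the other 52 clustered genes one of 0.25. The classes were not tested against each other, because their genes are not replicates. The part of sex in these differences was not tested either.

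**Figure D4:**
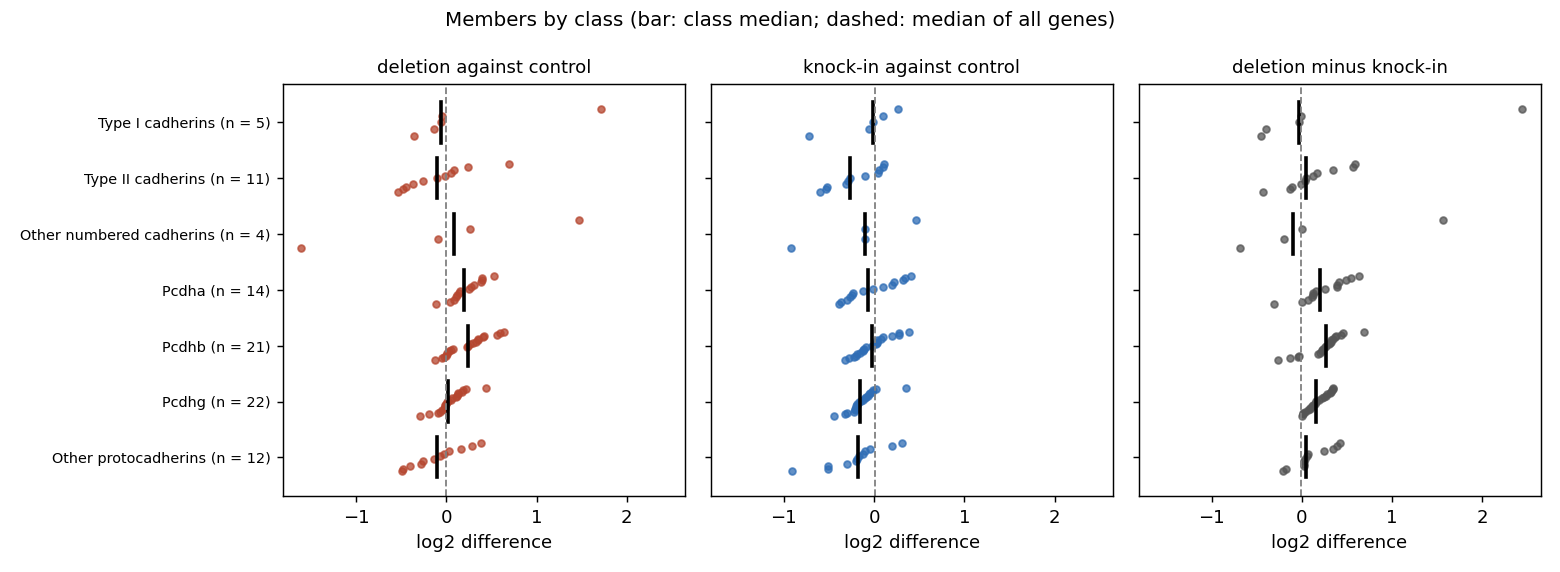
Members by class: log2 fold change of the deletion and of the knock-in against control and the deletion minus the knock-in, with class medians as bars and the median of all genes dashed. In the right panel the medians of the alpha, beta and gamma clusters lie at 0.21, 0.27 and 0.15, while those of the cadherin classes lie between -0.10 and 0.04.

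Partners of the family were taken from lists chosen with earlier results known. In either comparison 0 of their genes passed, against 0.976% (deletion) and 0.137% (knock-in) of all genes tested. The 9 measured catenins and adhesion partners, which tie cadherins to actin, had medians of 0.01 (deletion) and -0.03 (knock-in) and lay between -0.12 and 0.31 in the former. The 18 measured other genes of the cadherin superfamily, such as Fat, Celsr and calsyntenin genes, had medians of 0.06 and -0.01 and spread most widely, from -2.82 to 1.45 in the deletion and from -0.84 to 0.71 in the knock-in. The ends of that range were Cdhr1, a photoreceptor cadherin gene, at -2.82 (SE 1.39, adjusted p = 0.495), and Fat2 at 1.45 (SE 0.45, adjusted p = 0.0835), both named after their values were seen. The 7 genes of cadherin shedding and cleavage lay between -0.06 and 0.17 (deletion) and between -0.11 and 0.15 (knock-in). Of 12 regulators of the protocadherin clusters, among them the insulator gene Ctcf and cohesin subunits, 11 lay below control in the deletion (median -0.10) and 5 in the knock-in (median 0.01). Of 10 genes of protocadherin signalling, 8 lay below control in the deletion (median -0.03) and 9 in the knock-in (median -0.07).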

How the data were processed

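RNA sequencing of mouse cortex was analysed from the authors' deposited comparison tables, 1 per altered genotype. Library preparation used mRNA capture, per the labels' protocols. Tools named in the submitters' processing notes are STAR 2.7.9a, Bowtie2 2.4.4 and cutadapt, and builds mm9 and mm10. The notes assign no step to any of them, and the counting method is not given. The design text calls the 3 libraries of a genotype biological replicates. Nothing says whether embryos were pooled, so p-values measure the spread between libraries. The authors fitted DESeq2, per the readme sheet of the deposited workbook. Per the file headers, the authors deposited log2 fold changes with SEs on the log2 scale, a Wald statistic (a score), raw and adjusted p-values, and baseMean, a signal (mean normalised count). The deposited columns headed FPKM equal baseMean times R's normal draws (mean 1, SD 0.1, seed 42) within 1e-09 and were not used. Effect was statistic times SE. The deposited columns were checked against it within relative 1e-06 for fold change and 1e-04 for log10 p. They disagreed for 22 and 25 fold changes and 4 and 930 p-values in the deletion and knock-in.

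The members, lists and tests were chosen with earlier results of these data known. Named were members with an unadjusted p under 0.05, class extremes, a fixed set of well-known members, the genes next to the baseMean minimum, and up to 3 genes per list past the threshold. Positions, exon lengths and overlaps came from GENCODE M21 (89 of 89 members found), promoters from RefSeq GRCm38.p6. The effect, the Wald p and its adjustment were tested on simulated statistics drawn with the deposited SEs. Class summaries, the promoter search and the difference between deletion and knock-in were not simulated. Python 3.11.15, numpy 2.4.6, pandas 2.3.3, scipy 1.17.1, matplotlib 3.10.9 and R 4.3.3 were used.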

Additional observations from a re-analysis of the deposited data

How the results depend on the processing

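No paired analysis was possible because values per library were not used, and for the same reason leaving out each replicate was not run. With the deposited adjusted p, 5 members in place of 0 pass in the knock-in. The count in the deletion was 1 under thresholds of 0.1 and 0.01, the deposited adjusted p and both other sets of genes for the adjustment, and 0 members differed between deletion and knock-in under each alternative for that test. With a baseMean of at least 50, the members above control became 1 of the other numbered cadherins in the deletion, and 1 of type I and 0 of the other numbered cadherins in the knock-in. With Cdh5 put back, the latter count became 2. Without members that have over 60% of their exon bases in other genes, an alternative added after seeing the data, 1 gamma gene was above control in the knock-in. Class medians moved by at most the 0.20 of the members' median SE under the alternatives run. The deletion median of the 4 other numbered cadherins went from 0.08 to -0.10 with a baseMean of at least 50 and to 0.27 with Cdh5 put back. Precision is limited by SEs with a median of 0.20 among members against 0.15 among all genes with a baseMean of at least 20.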
